A study of Mus musculus with 11 samples.

Results

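The miRNAs made without the nuclear RNase Drosha, miR-320, miR-484, miR-877, miR-1224 and miR-702, were examined in small RNA libraries of mouse embryonic stem (mES) cells. They were chosen by name, and every table row bearing exactly such a hairpin number was taken, with its arms as listed. This gave 4 of the 592 miRNAs, from 3 of the 5 hairpins, namely miR-320-3p, miR-484, miR-877-5p and miR-877-3p. miR-1224 and miR-702 had 0 rows and their levels were not analysed here. The table keeps only miRNAs whose larger group mean reached 10, so that a missing row is no measurement of a level.

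The libraries compare Trim-/- with Trimfl/fl mES cells, in order to find miRNAs that differ when Trim71, an RNA-binding protein with a RING domain, is lost. Both groups were male C57BL/6 cells that carry floxed Trim71 alleles and, according to the Methods of the study, a 4-hydroxytamoxifen (4-OHT) inducible Cre recombinase in the Rosa26 locus. Trim-/- cells were given 500 nM 4-OHT for 2 days and kept for at least 7 more days according to the labels, whereas the Methods name a lower dose, a shorter further culture and the solvent DMSO for Trimfl/fl cells. All cells grew in serum with LIF and were sorted for the surface marker SSEA-1 before lysis. The cells came from 2 clones, and each clone was used in both genotypes. Clone 1 gave the pairs of days 1, 5 and 6 and clone E3 those of days 3 and 4, with 1 library of each genotype a day. The Trimfl/fl library of day 2 had no partner, equalled the mean of the other Trimfl/fl libraries in these 4 miRNAs and was left out, so that 10 libraries in 5 same-day pairs were compared. The labels do not say whether the days were separate cultures, so that p-values measure the spread between these libraries only.

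Values are normalized read counts, already corrected for batch by the authors, and their sequencing depth is unknown. For 591 of the 592 miRNAs, these 4 included, the Trim-/- and Trimfl/fl values of a day added up to the same sum, within 0.1%. Days with a value at the floor of 1 were left out of this check. For the 4 the sum of each of the 5 days was 6846 for miR-320-3p, 3879 for miR-484, 57.3 for miR-877-5p and 114 for miR-877-3p. A pair therefore gives 1 difference and not 2 free values, and both genotypes have the same SD by construction. This does not hold where a value was raised to the floor of 1. Library sums ran from 3751519 to 5551715 in Trim-/- and from 2742673 to 4332525 in Trimfl/fl. The 18 miRNAs of the miR-290 to miR-295 cluster, the main miRNAs of mES cells, had a median level of 21888 against 141.9 for all miRNAs. The deletion of Trim71 cannot be read from a miRNA table and was not checked in these libraries.

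Most miRNAs are cut from a long transcript in the nucleus by Drosha and its partner Dgcr8, exported by Exportin-5 and cut again by Dicer in the cytoplasm. The precursors of miR-320 and miR-484 skip the nuclear cut, because RNA polymerase II starts directly at the hairpin, which then carries a cap and leaves the nucleus through Exportin-1. Mirtrons such as miR-877, miR-1224 and miR-702 are short introns, and the spliceosome and the debranching enzyme take the place of Drosha. Both kinds still depend on Dicer, and for this reason they are often used to tell loss of Drosha or Dgcr8 from loss of Dicer.

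The hairpins lie beside or within other genes. On GRCm38, the build named mm10 in the deposited records, GENCODE M21 places Mir320 at chr14:70443510-70443591 on the plus strand. It begins 63 bases from the start of Polr3d, a gene for a subunit of RNA polymerase III that is read from the opposite strand. Mir484 lies at chr16:14159626-14159692 on the plus strand, 359 bases from the start of the Marf1-201 transcript, which runs the other way. It also overlaps an exon of the longer Marf1-202 transcript in antisense, and it lies 3583 bases before Nde1, which is read from the same strand. Mir877, at chr17:35960730-35960814 on the minus strand, matched intron 12 of Abcf1-201 base for base, 85 of 85. Abcf1 encodes an ATP-binding cassette protein of translation initiation. Mir1224, at chr16:20604452-20604536 on the plus strand, likewise equalled intron 22 of Vwa5b2-202. Mir702, at chr5:136991433-136991541 on the plus strand, differed from intron 13 of Plod3-201, which spans chr5:136991442-136991543, although its mature 5p arm begins at the first base of that intron.

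Sequences from RefSeq (GRCm38.p6) were matched for 3 of the 4 miRNAs of the table. They are shown from 5′ to 3′ with the seed, bases 2 to 8, in capitals, since the seed chooses the targets and shows which miRNAs could act alike.
miR-484: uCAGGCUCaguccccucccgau
miR-877-5p: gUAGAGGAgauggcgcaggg
miR-877-3p: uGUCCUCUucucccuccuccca
No other mature mouse miRNA of the RefSeq table had any of these seeds, so that none of them has a seed family there.

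The hairpins are printed with the mature miRNAs in capitals, to show where the arms lie and how a mirtron carries the marks of an intron.
Mir484: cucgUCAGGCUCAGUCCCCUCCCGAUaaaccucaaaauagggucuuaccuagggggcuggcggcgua
Mir877: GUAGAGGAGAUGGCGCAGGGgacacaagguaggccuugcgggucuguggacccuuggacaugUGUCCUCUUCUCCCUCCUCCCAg
The Mir484 hairpin of 67 bases has its mature miRNA at bases 5 to 26. In Mir877 the 5p arm takes bases 1 to 20 and begins with GU, as introns do. Its 3p arm takes bases 63 to 84, and the AG with which introns end closes the hairpin, so that only 1 base follows the arm.

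The arms of miR-877 also carried the base composition of an intron's ends. Pyrimidines made up 90.9% of miR-877-3p, and only 2 of 1679 mature mouse miRNAs in the RefSeq table (0.119%, miR-877-3p included) were as rich. In the 5p arm 4 of 20 bases were pyrimidines, a share which 39 of the 1679 (2.32%) did not exceed. An intron ends in a tract of pyrimidines, and the 3p arm of a mirtron lies on it. The arms of miR-1224 showed the same split, with 19.0% in 5p and 85.7% in 3p. In miR-702 the shares were 33.3% and 81.8%. miR-484, from a capped precursor, had 68.2%, and 273 of the 1679 (16.3%) had as much or more. The arms of miR-877 and miR-1224 thus stood near both ends of the distribution. miR-702-3p also stood near the pyrimidine-rich end, with 42 of 1679 (2.50%) as rich or richer. miR-702-5p, with 259 of 1679 (15.4%) at or below it, was about as far from its end as miR-484.

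The capped miRNAs were abundant in these cells and the mirtron was scarce. Over the 10 libraries miR-320-3p averaged 3423 and ranked 76 of 592, with 87.2% of the miRNAs below it. miR-484 averaged 1939 and ranked 103, with 82.6% below it. miR-877-3p averaged 56.8 at rank 395 and miR-877-5p 28.6 at rank 460. The capped miRNAs and the mirtron thus lay on either side of the middle of the table. In single libraries the ranks lay between 57 and 120 for miR-320-3p and between 75 and 130 for miR-484, so that these ranges overlapped. The ranks of miR-877-3p ran from 350 to 436 and those of miR-877-5p from 413 to 498. No value of the 4 was at the floor of 1 that the authors set.

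The order of levels was miR-320-3p, miR-484, miR-877-3p and miR-877-5p, and only the step from the capped miRNAs to the mirtron was clear of all spread. miR-320-3p was 1.76-fold above miR-484 by the means and higher in 9 of 10 libraries, but its lowest value of 1167 lay under the 2647 that miR-484 reached. miR-484 was 34.2-fold above miR-877-3p, and the ranges were far apart. miR-877-3p was 1.98-fold above miR-877-5p and higher in 10 of 10 libraries, although its lowest value, 39.8, lay just under the highest value of the 5p arm, 40.9. Mature miRNAs are of nearly equal length, so that these levels can be set side by side, apart from differences in how readily each is cloned. Together the 4 gave between 3804 and 7091 normalized reads a library, and their share of the library sum lay between 0.116% and 0.151%, with the extremes in other libraries.

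**Figure D1:**
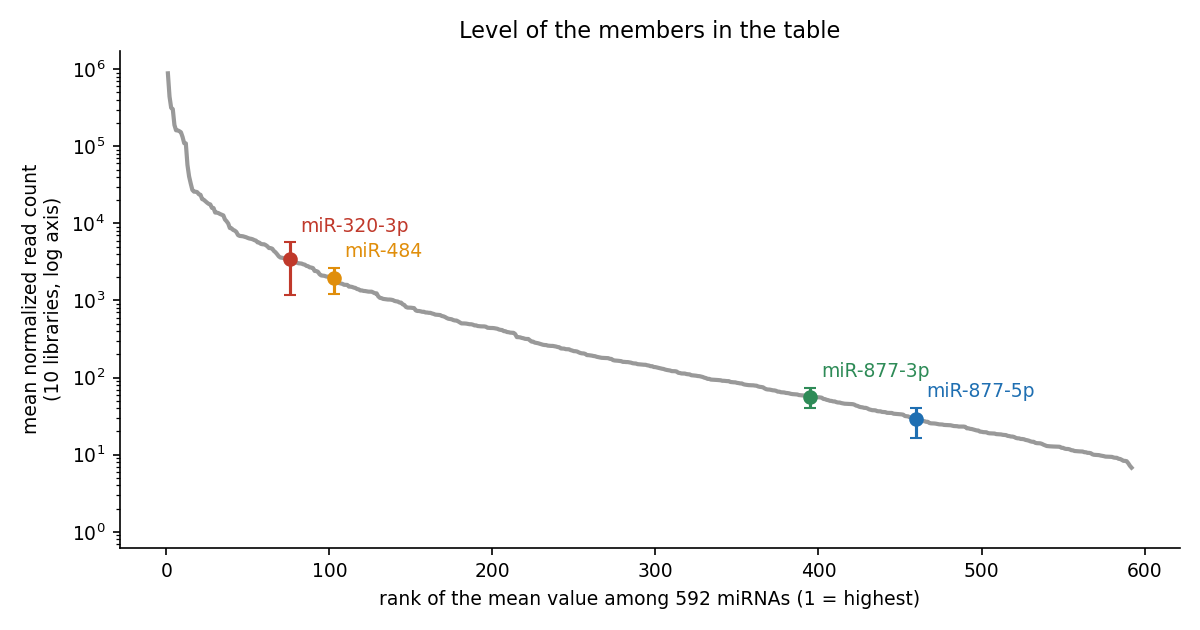
Mean normalized read count over 10 libraries (log axis) against the rank of that mean among 592 miRNAs, as a grey line. Points mark the 4 miRNAs and bars their lowest and highest library, with miR-320-3p at rank 76 and miR-484 at 103 near the upper end, miR-877-3p at 395 and miR-877-5p at 460 in the lower part.

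None of the 4 miRNAs differed between the genotypes beyond the spread of the days. As deposited, all 4 miRNAs had a higher mean in Trim-/-, by 1.08- to 1.37-fold. After division by the library sum, miR-484 (log2 fold change -0.16) and miR-877-3p (-0.0036) were lower. The deposited values of the genotypes overlapped, 0 of 4 being clear of overlap against 68 of the 592 miRNAs (11.5%). Since the same-day sums are fixed, this says no more than that each had a day in the other direction. The study asked for a fold change over 1.5 with an unadjusted p under 0.05, and these thresholds were passed in Trim-/- by 5 of the 592 miRNAs upward (0.845%) and by 27 downward (4.56%) in limma, and 0 of the 4 were among them. At a Benjamini-Hochberg adjusted p under 0.05 in limma, 0% of the 592 miRNAs and 0 of the 4 were called, the smallest adjusted p of all being 0.607, and 32 miRNAs had an unadjusted p under 0.05. The exact permutation test with 5 pairs cannot go below p = 0.0625.

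Of the 4 miRNAs, miR-320-3p had the largest difference and, before division by the library sum, the largest spread. In Trim-/- its values were 3790, 3650, 2297, 5678 and 4374 on days 1, 3, 4, 5 and 6. In Trimfl/fl they were 3056, 3196, 4549, 1167 and 2471 on the same days. Trim-/- was thus the higher library on 4 days and the lower on day 4, while day 5 held both the highest and the lowest value of all. The means were 3958 ± 1226 (SD, n = 5) and 2888 ± 1226 (SD, n = 5). The log2 fold change was 0.52 (SE 0.48), with a 95% interval from 0.635- to 3.26-fold, an adjusted p of 0.677 in limma and an exact permutation p of 0.375. The interval thus held falls as well as rises of more than 1.5-fold, and leaving out day 5 gave a log2 fold change of 0.09, whereas leaving out day 4 gave 0.90 (unadjusted p of 0.0953 in limma). On day 5 the same-day log2 difference was 2.28, which exceeded that of 91.6% of the miRNAs, and on day 4 it was -0.99, which exceeded that of 18.6%.

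miR-484, the other miRNA with a capped precursor, had the smallest mean difference of the 4 before division by the library sum, with single days in opposite directions. Its Trim-/- values were 2647, 1905, 2182, 1324 and 2000 on days 1, 3, 4, 5 and 6. The Trimfl/fl values were 1232, 1974, 1697, 2555 and 1879. Trim-/- was higher on 3 days, and the difference of day 1 was opposed by that of day 5. The means were 2012 ± 479 (SD, n = 5) and 1867 ± 479 (SD, n = 5). The log2 fold change was 0.11 (SE 0.35), with a 95% interval from 0.600- to 1.94-fold, an adjusted p of 0.884 in limma and an exact permutation p of 0.625. Without the pair of day 1 the direction turned, to -0.14. On day 1 its log2 difference of 1.10 exceeded that of 93.9% of the miRNAs, whereas on day 5 the difference of -0.95 exceeded only that of 18.9%.

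miR-877-5p, the 5′ end of the Abcf1 intron, followed the days in the same directions as miR-320-3p. It measured 31.9, 37.1, 18.7, 40.9 and 30.5 in Trim-/- on days 1, 3, 4, 5 and 6. In Trimfl/fl it measured 25.4, 20.2, 38.6, 16.4 and 26.8. Trim-/- was higher on 4 days and lower on day 4, where the order of the genotypes was turned. The means were 31.8 ± 8.44 (SD, n = 5) and 25.5 ± 8.44 (SD, n = 5). The log2 fold change was 0.32 (SE 0.38), with a 95% interval from 0.655- to 2.39-fold, an adjusted p of 0.720 in limma and an exact permutation p of 0.375. Leaving out day 5 gave 0.09, whereas leaving out day 4 gave 0.66 (unadjusted p of 0.0767 in limma).

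miR-877-3p, near the 3′ end of the same intron, varied least before division by the library sum. Its Trim-/- values were 73.7, 68.5, 57.5, 48.3 and 61.4 on days 1, 3, 4, 5 and 6. The Trimfl/fl values were 39.8, 45.1, 56.0, 65.2 and 52.2. Trim-/- was again higher on 4 days, but here the exception was day 5, and on day 4 the genotypes were nearly equal. The means were 61.9 ± 9.83 (SD, n = 5) and 51.7 ± 9.83 (SD, n = 5). The log2 fold change was 0.26 (SE 0.29), with a 95% interval from 0.740- to 1.94-fold, an adjusted p of 0.708 in limma and an exact permutation p of 0.312. Leaving out day 1 gave 0.11, leaving out day 5 gave 0.43, and division by the library sum gave -0.0036. As a share of the library its same-day log2 differences ran from -1.45 on day 5 to 0.68 on day 1. Those of miR-877-5p then ran from -0.84 to 0.76.

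**Figure D2:**
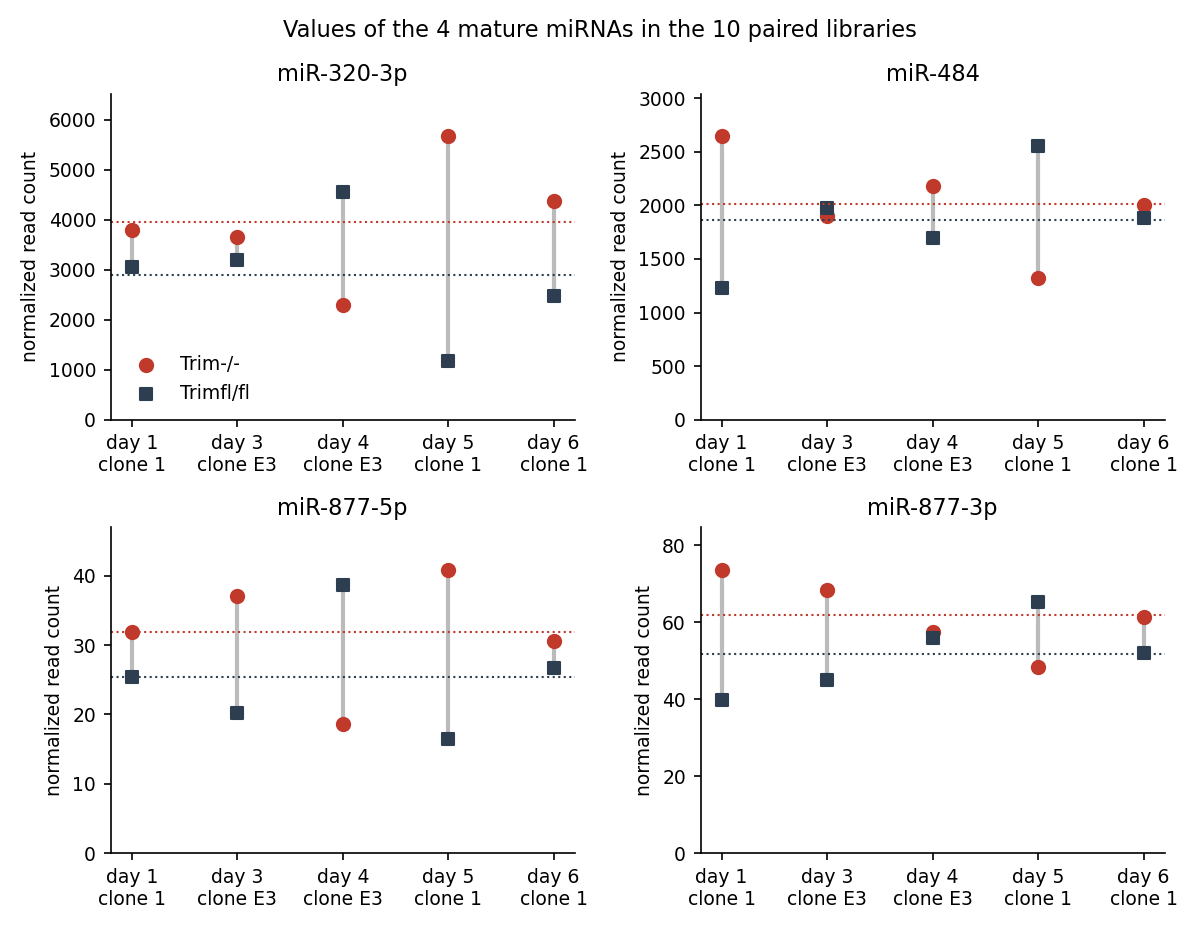
Normalized read count of each miRNA in the 10 libraries, by day and clone, with Trim-/- as red circles, Trimfl/fl as dark squares, a grey line joining each pair and dotted lines at the group means. The pairs mirror each other about a fixed middle, the genotypes overlap in all 4 panels, and the widest pair is that of miR-320-3p on day 5 (5678 and 1167).

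A day-to-day difference of this size was usual in the table. The SD of the 5 same-day log2 differences was 1.18 for miR-320-3p, 0.74 for miR-484, 0.86 for miR-877-5p and 0.50 for miR-877-3p, against a median of 0.93 over all miRNAs. For miR-877-3p only 17.9% of the miRNAs had a smaller SD, and for miR-320-3p 61.7% had. All but miR-484, that is 3 of 4, were higher in Trim-/- on at least 4 of 5 days, a count that 164 of the 592 miRNAs (27.7%) reached. With 4 miRNAs, of which a pair share a hairpin, that share was not tested. The median same-day log2 difference of the 4 was 0.60, 0.39, -0.47, 0.42 and 0.21 on days 1, 3, 4, 5 and 6. The median of all 592 stayed between -0.02 and 0.02 on these days.

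Days 4 and 5 split the 4 miRNAs into pairs that crossed the kinds of precursor. miR-320-3p and miR-877-5p were lower in Trim-/- on day 4 and higher on day 5, as were 177 of the 592 miRNAs (29.9%). miR-484 and miR-877-3p were higher on day 4 and lower on day 5, as were 180 (30.4%). In the table as a whole these opposite signs were thus the most frequent outcomes, and 117 miRNAs (19.8%) were higher on both days. Over all 5 days miR-320-3p and miR-877-5p had the same signs, an order of signs shared by 64 miRNAs (10.8%), while the signs of miR-877-3p were shared by 20 (3.38%) and those of miR-484 by 9 (1.52%).

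**Figure D3:**
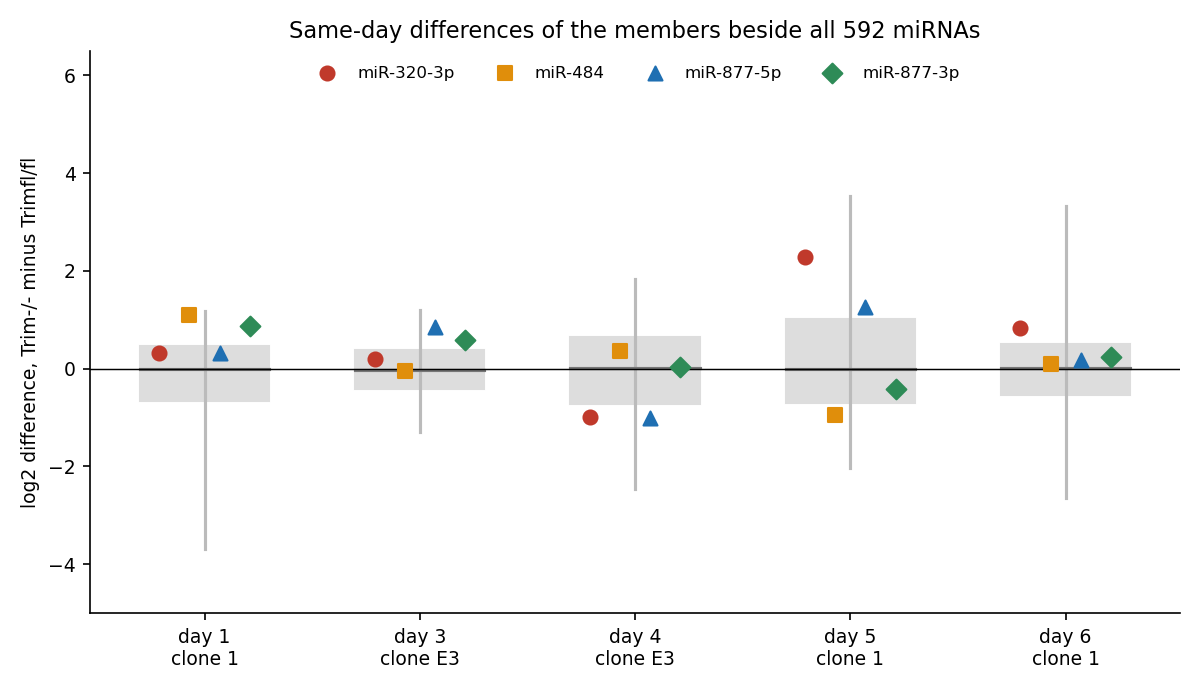
Same-day log2 difference, Trim-/- minus Trimfl/fl, of the 4 miRNAs on each day. Grey boxes give the quartiles of all 592 miRNAs, the dark line in each their median and the thin line their 5th to 95th percentile. The circle of miR-320-3p and the triangle of miR-877-5p lie under the boxes on day 4 (-0.99 and -1.01) and above them on day 5 (2.28 and 1.27).

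The miRNAs with the most similar day profiles were found by the mean absolute difference of the 5 same-day log2 differences. For miR-320-3p this was miR-708-3p at 0.20, a miRNA of like abundance (mean 3584), followed by miR-1968-5p at 0.26 and miR-292-5p at 0.27. For miR-484 it was miR-294-5p at 0.21, an arm of a hairpin of the miR-290 to miR-295 cluster, followed by miR-361-5p at 0.23 and miR-183-3p at 0.24. These lists of the capped miRNAs had no miRNA in common, which says little for lists of 3 out of so many miRNAs. For miR-877-5p it was miR-130b-5p at 0.20, then miR-292b-3p at 0.23 and miR-24-3p at 0.29. For miR-877-3p it was miR-125a-5p at 0.17, then miR-191-3p at 0.20 and miR-450b-3p at 0.23. None of the 4 thus had another of them among its 3 nearest. miR-320-3p and miR-877-5p differed by 0.47, and stood at places 25 and 38 in each other's lists. miR-484 and miR-877-3p differed by 0.37, and stood at places 17 and 23. The arms of miR-877 differed by 0.72, at places 124 and 184. The capped pair, miR-320-3p and miR-484, differed by 1.27 and stood at places 310 and 399.

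The arms of miR-877 come from the same intron and could be compared within a library. The ratio of the 3p to the 5p value lay between 1.18 and 3.98, and the 3p arm was the higher in every library. In Trim-/- the ratio was 2.31, 1.84, 3.08, 1.18 and 2.01 on days 1, 3, 4, 5 and 6. In Trimfl/fl it was 1.57, 2.24, 1.45, 3.98 and 1.95. The lowest and the highest ratio both belonged to day 5, and the genotypes overlapped. The mean log2 ratio was 0.97 ± 0.49 (SD, n = 5) in Trim-/- and 1.03 ± 0.56 (SD, n = 5) in Trimfl/fl. The difference of -0.06 (SE 0.46) was higher in Trim-/- on 3 of 5 days and had an exact permutation p of 0.875, two-sided. Without the pair of day 5 the difference was 0.35, in the other direction.

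Other hairpins showed such arm differences too. Of 179 hairpins with both arms in the table, the 3p arm was the more abundant in 86 (48.0%). The log2 ratio of the arms of miR-877, 0.99, was small beside the median size of 3.10, and only 26 hairpins (14.5%) had arms closer in level. Its arms were thus closer in level than those of most hairpins listed with both arms. A hairpin is counted here only if both arms passed the filter, and the lowest mean in the table was 6.78. With its higher arm at 56.8, miR-877 could hardly have had a ratio above that median. Its place is therefore no particular trait of the mirtron. The same-day differences of the miR-877 arms had the same sign on 3 of 5 days, as in 58 hairpins (32.4%), and 122 (68.2%) reached no more than 3 days. On average these differences were 0.72 apart, against a median of 1.05, and 125 hairpins (69.8%) had arms further apart. By this measure the arms of the mirtron lay nearer to each other than those of most hairpins, but arms that vary little also lie near each other by it. Only 17.9% of the miRNAs had a smaller SD of the same-day differences than miR-877-3p. The arms stood at places 124 and 184 in each other's lists of similar profiles, so that no shared course over the days is shown.

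**Figure D4:**
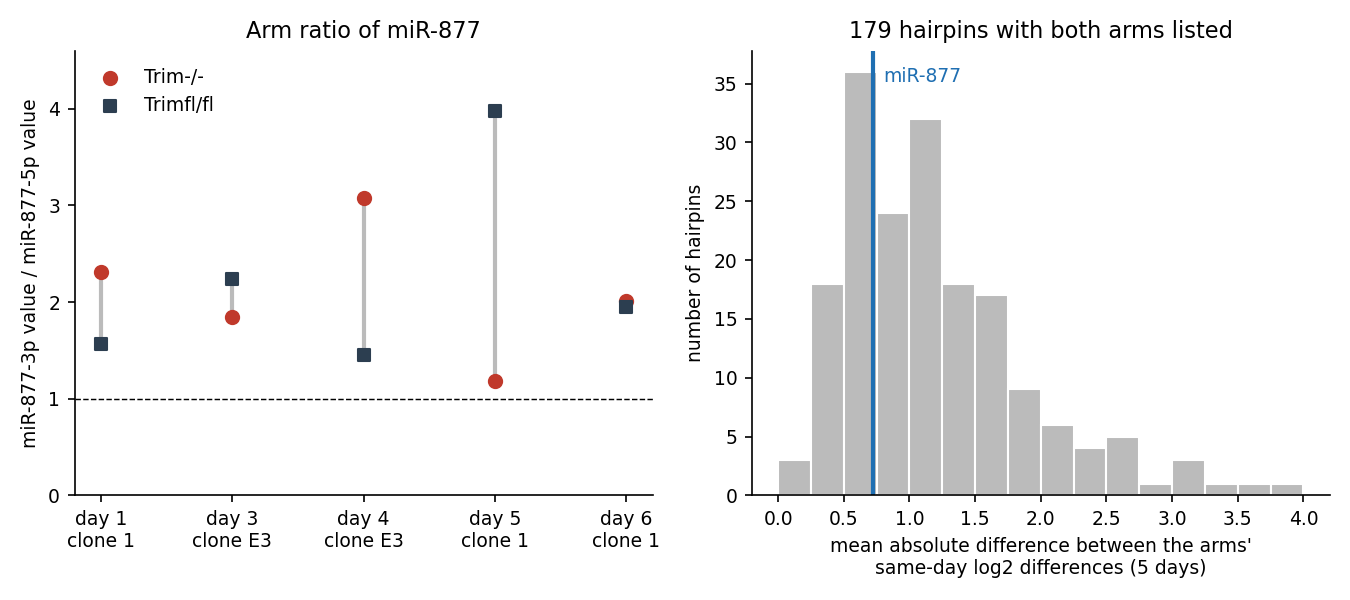
Left, ratio of miR-877-3p to miR-877-5p in each library by day, with Trim-/- as red circles, Trimfl/fl as dark squares and a dashed line at equal levels. Right, number of hairpins by the mean absolute difference between the same-day log2 differences of their arms, for 179 hairpins, with a blue line for miR-877 at 0.72, left of the median of 1.05.

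Before division by the library sum, the clones gave unlike estimates for miR-320-3p and miR-877-5p, but not beyond the spread. In clone 1 the log2 fold change of miR-320-3p was 1.14 over 3 pairs and in clone E3 it was -0.40 over 2 pairs. The difference between the clones was 1.54 (SE 0.83), with an adjusted p of 0.627 in limma. For miR-877-5p the clones gave 0.59 and -0.08, a difference of 0.67 (SE 0.80, adjusted p of 0.725 in limma), which turned to -0.26 when day 4 was left out and came to 1.60 when day 3 was. miR-484, with 0.08 and 0.16, and miR-877-3p, with 0.23 and 0.31, had like values in both clones over all pairs, with differences of -0.07 (SE 0.77) and -0.09 (SE 0.64). With a pair left out these went from -0.58 to 0.44 for miR-484 and from -0.41 to 0.24 for miR-877-3p. After division by the library sum the clone difference was -0.59 for miR-484, -0.60 for miR-877-3p, 0.17 for miR-877-5p and 1.02 for miR-320-3p. The likeness of the clones for miR-484 and miR-877-3p thus held only before that division. Among all 592 miRNAs the clones differed at an unadjusted p under 0.05 in 33 (5.57%) and at an adjusted p under 0.05 in 1 (0.169%), and 0 of the 4 were among either. Clone and day cannot be told apart, since each day used a single clone.

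Dividing by the library sum lowered the log2 fold changes of the whole table, and the smaller differences changed sign with it. On day 5 the Trim-/- library sum was 2.02-fold that of its Trimfl/fl partner, while on the other days the ratio lay between 0.866 and 1.16. When each value was divided by its library sum, the log2 fold change of miR-320-3p was 0.25, that of miR-877-5p 0.06, that of miR-877-3p -0.0036 and that of miR-484 -0.16, so that the direction of miR-877-3p and miR-484 turned. This scaling moved the median of all miRNAs from 0.03 to -0.24 and that of the 4 from 0.29 to 0.03, since dividing by the library sum shifts all miRNAs of a pair by nearly the same amount and leaves the place of the 4 among them as it was. Over all miRNAs the split changed from 303 higher and 289 lower to 204 higher and 388 lower, and over the 4 from 4 and 0 to 2 and 2. As a share of the library, miR-320-3p still differed by a log2 of 1.27 on day 5, miR-484 by -1.97 and miR-877-3p by -1.45. The widest range was then that of miR-484, from -1.97 to 0.90, against -0.78 to 1.27 for miR-320-3p. On day 6 the library sums lowered all log2 differences of the pair alike, by 0.21. miR-877-5p then turned to -0.02 and miR-484 to -0.12, while miR-320-3p was at 0.61. By this common shift alone, miR-877-5p was higher on 3 of 5 days and no longer had the signs of miR-320-3p, which says nothing about their likeness.

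**Figure D5:**
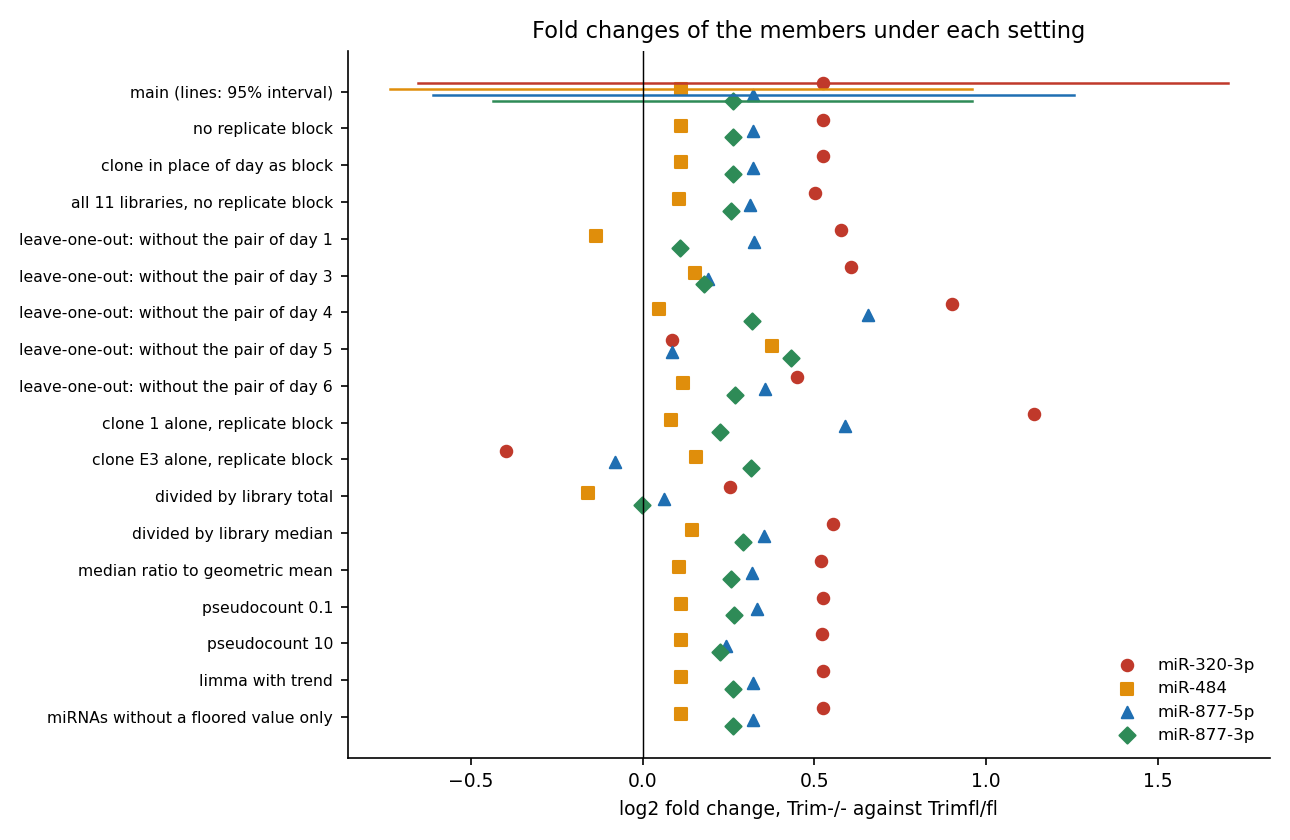
Log2 fold change of Trim-/- against Trimfl/fl for the 4 miRNAs under each way of processing, a row for each setting, with the 95% intervals of limma as lines in the top row. Points left of the vertical line at 0 occur for miR-484 without the pair of day 1 (-0.14) and under division by the library total (-0.16), for miR-320-3p (-0.40) and miR-877-5p (-0.08) in clone E3 alone, and for miR-877-3p under division by the library total.

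Beside all other miRNAs the 4 had slightly higher log2 fold changes, which was not tested over so few. Their log2 fold changes were higher than those of 78.5% of the miRNAs for miR-320-3p, 69.4% for miR-877-5p, 65.4% for miR-877-3p and 56.4% for miR-484. The median of the 4 was 0.29 with 4 higher in Trim-/- and 0 lower, against 0.02 for the 588 other miRNAs, of which 299 were higher and 289 lower, before any division by the library sum. miR-320-3p lay just above the upper quartile of all miRNAs, 0.44, and the other 3 lay under it.

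A chosen list of 6 other miRNAs with unusual biogenesis, which holds no mirtron, went both ways. These are both arms of miR-664 and miR-1839, cut from small nucleolar RNA-like precursors, miR-1983, which derives from a tRNA, and miR-451a, whose precursor is cut by Ago2 in place of Dicer. Of these 6, 3 were higher and 3 lower in Trim-/-, 0 passed the thresholds of the study, and the median log2 fold change was -0.26, with a range from -2.23 to 0.88. The highest was miR-1839-5p, at 698.6 ± 263 (SD, n = 5) in Trim-/- and 486.6 ± 263 (SD, n = 5) in Trimfl/fl, a log2 fold change of 0.88 (SE 0.79, adjusted p of 0.667 in limma). It had the same signs on the 5 days as miR-320-3p and miR-877-5p, with a log2 difference of 4.49 on day 5 and between -0.84 and 0.45 on the other days. The lowest was miR-1983, at 580.9 ± 390 (SD, n = 5) and 1067 ± 418 (SD, n = 5), where the Trim-/- library of day 1 was at the floor of 1 (log2 fold change -2.23, SE 1.57, adjusted p of 0.645 in limma). miR-451a, with means of 7.04 in Trim-/- and 12.8 in Trimfl/fl, was near the lowest level that the table keeps.

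The Drosha-dependent miR-290 to miR-295 cluster had a similar median log2 fold change. Of its 18 miRNAs, 13 were higher and 5 lower in Trim-/-, with a median log2 fold change of 0.19, and 0 passed the thresholds. Its median same-day log2 differences were 0.57, 0.25, 0.31, 0.16 and 0.18 on days 1, 3, 4, 5 and 6, which differed most from the median of the 4 on day 4. The 4 went both ways on days 3, 4 and 5. The lists were not tested against each other.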

How the data were processed

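The authors aligned the small RNA reads to miRBase and counted them in Partek 6.6. They passed the counts through DESeq2 for normalization and through a batch correction, raised every value below 1 to 1, and deposited 592 miRNAs in 11 libraries. The deposited values are thus a batch-corrected signal and no longer counts. Base calling used CASAVA 1.8 and alignment Bowtie2 2.2.1, according to the submitters' processing notes, and mm10 is the build named. The labels describe a kit for long RNA, whereas the Methods of the study describe a small RNA kit. A further 9677 rows without a name were empty and were left out. No raw counts were used, the depth is unknown and no counting interval is given, so that precision comes from the 5 pairs alone.

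Genotypes were compared with limma 3.58.1 in R 4.3.3 on log2(value + 1), with terms for genotype and for day, over all 592 miRNAs, with Benjamini-Hochberg adjustment. The pairing comes from the day and clone labels, and the equal same-day sums make the deviations of a pair opposite. The fit was tested on simulated data first. Single values were also tested by exact permutation within days (32 sign patterns). Fold changes are on the log2(value + 1) scale, which understates those of low miRNAs. Named miRNAs are the members, the 3 nearest profiles of each and the members of the other non-canonical list. Members and lists were chosen with earlier results of these data known. Tables and plots used Python 3.11.15, pandas 2.3.3 and matplotlib 3.10.9. Alternatives were other blocks, all 11 libraries without a block, pairs left out, single clones, 3 scalings and pseudocounts of 0.1 and 10. Further ones were untransformed values with the floor and before it, limma with trend, miRNAs without a floored value and a mean of at least 100.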

Additional observations from a re-analysis of the deposited data

How the results depend on the processing

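Under the alternatives, 20 for miR-320-3p and miR-484 and 19 for each arm of miR-877, 0 of the 4 miRNAs passed the thresholds of the study. The smallest unadjusted p in limma was 0.0953 for miR-320-3p and 0.0767 for miR-877-5p, both without day 4. For miR-484 it was 0.277, without day 5. For miR-877-3p it was 0.129 with all 11 libraries and no replicate block, and 0.177 (without day 5) where the pairing was kept. Dropping the replicate block, that is the pairing by day, cannot change a log2 fold change, since each day has 1 library of each genotype. The 4 values thus stayed at 0.52, 0.11, 0.32 and 0.26. Of all miRNAs 42 then passed upward and 59 downward, against 5 and 27 with the block. Without the block the opposite values of a pair are taken as independent, so that the p-values are too small. In clone E3 alone the direction turned for miR-320-3p (-0.40), miR-877-5p (-0.0803) and the arm ratio of miR-877 (0.39), and the cause was not tested. Division by the library total turned miR-484 (-0.16) and miR-877-3p (-0.0036), a scaling that moved the median of all miRNAs from 0.03 to -0.24 and that of the 4 from 0.29 to 0.03. Leaving out each pair in turn gave log2 fold changes from 0.09 to 0.90 for miR-320-3p, from -0.14 (without day 1) to 0.38 for miR-484, from 0.09 to 0.66 for miR-877-5p and from 0.11 to 0.43 for miR-877-3p. The lowest value of miR-320-3p and of miR-877-5p and the highest of miR-484 and miR-877-3p came without day 5. The arm ratio went from -0.34 to 0.35 (without day 5). The difference between the clones, left out in turn in an alternative chosen after seeing the data, went from 0.95 to 2.12 for miR-320-3p, from -0.58 to 0.44 for miR-484, from -0.26 to 1.60 for miR-877-5p and from -0.41 to 0.24 for miR-877-3p.

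The count of all miRNAs past the thresholds moved most. Upward it was 36 with clone in place of day and 45 with all 11 libraries and no replicate block, where dropping the block alone gave 42. These settings, upward and downward alike, take the opposite values of a pair as independent, so that their p-values are too small. The setting with all 11 libraries also holds the library of day 2, which in the 4 miRNAs equalled the mean of the other Trimfl/fl libraries. The upward count was 14 in clone 1, 8 in clone E3, 2 with division by the total, 9 with division by the median and 8 with a pseudocount of 10. On untransformed values it was 9, both with the floor and before it, and without floored miRNAs 10. Downward it was 57 with clone in place of day and 71 with all 11 libraries and no replicate block, where dropping the block alone gave 59. It was 45 in clone 1, 48 with division by the total and 10 with a mean of at least 100, a filter that leaves out both arms of miR-877. Without each pair in turn it went from 4 to 23 upward and from 11 to 44 downward. Depth is unknown, so that the low values of miR-877 have no counting error here.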
